A study of Homo sapiens with 6 samples.

Results

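The 10 genes described here are ATF4, the transcription factor at the centre of the integrated stress response, and 9 genes that work with it or under it: DDIT3, TRIB3, CHAC1, SESN2, ASNS, ATF5, NUPR1, STC2 and CEBPG. They were picked by symbol, and all 10 were found among the 16305 genes measured. The set was selected on the contrast of fostamatinib against DMSO in these same samples, so that contrast is given for the members as a description, with no test. The cells were Huh7SR, a line made resistant by long exposure of the human hepatocellular carcinoma line Huh7 to the kinase inhibitor sorafenib. The study describes the resistant cells used here as a pool and not a single clone. There were 3 samples of Huh7SR exposed to fostamatinib, an inhibitor of spleen tyrosine kinase, at 2 µM for 24 h, and 3 of Huh7SR given the DMSO vehicle for 24 h, which carry the same 2 µM entry in their dose label. The study reports that it did not detect the protein of spleen tyrosine kinase in Huh7 cells. Parental Huh7 cells were not analysed here, so all 6 samples share the resistant background. The labels state that treatments were applied in triplicate without saying whether the cultures were separate, and any spread or p-value below therefore covers these samples only, whose differences may be technical.

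In the integrated stress response, kinases that sense amino acid shortage, unfolded protein, double-stranded RNA or haem deficiency phosphorylate the translation initiation factor eIF2. General translation slows, while the mRNAs of ATF4 and a few other factors are translated better because of short reading frames ahead of their coding sequences. ATF4 then binds DNA with partners of the C/EBP family at C/EBP-ATF response elements and drives genes for amino acid synthesis and transport, tRNA charging, redox balance and, under lasting stress, cell death. In liver and its tumours the pathway is known for its link to nutrient supply and to secretory load. The files hold mRNA, so translation of ATF4 and the level of its protein were not measured.

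Values are log2 CPM, the log2 of a gene's reads relative to the size of its library, on one scale across the samples, and reads are the whole numbers behind them. After fostamatinib 8 of the 10 genes were lower and 2 were higher. The genes lowest relative to DMSO were CHAC1 (log2 difference -4.28, SE 0.14), ASNS (-3.08, SE 0.06), STC2 (-2.08, SE 0.05) and TRIB3 (-1.33, SE 0.05), all more than 2-fold lower. ATF4 itself, CEBPG, SESN2 and DDIT3 were lower by less than 2-fold, and ATF5 and NUPR1 were higher. The median log2 difference of the 10 was -0.72, beside 0.0015 over all genes.

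The letters searched for the C/EBP-ATF response element were TGATGNAA, with no mismatch allowed and on both strands. They were found within 1000 bases of the annotated start in 7 of the 9 members that could be searched, NUPR1 not being among the RefSeq promoters used here. For each gene that holds the stricter letters TGATGCAA (read as TTGCATCA on the other strand) the site with these letters nearest to the start is shown here, with the ASNS site nearest to the start, because they let the members be compared base by base at the element that ATF4 is known to bind. Each line is 30 bases of GRCh37 written on the gene's own strand, with the matched letters in capitals and distances counted to the first of them. The CHAC1 site is at chr15:41245449-41245478 on the plus strand, 209 bases before the start. The ASNS site is at chr7:97501770-97501799 on the minus strand, 68 bases before the start. The STC2 site is at chr5:172756151-172756180 on the minus strand, 752 bases before the start. The first TRIB3 site is at chr20:361525-361554 on the plus strand, in an untranslated exon and 132 bases after the start. The CEBPG site is at chr19:33864966-33864995 on the plus strand, in an intron and 362 bases after the start. The SESN2 site is at chr1:28586570-28586599 on the plus strand, in an intron and 552 bases after the start. The DDIT3 site is at chr12:57914585-57914614 on the minus strand, 306 bases before the start.
CHAC1: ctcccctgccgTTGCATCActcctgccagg
ASNS: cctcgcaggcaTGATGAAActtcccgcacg
STC2: cctcctggaaaTGATGCAAgtcctgactgt
TRIB3: ttagctccggtTTGCATCAcccggaccggg
CEBPG: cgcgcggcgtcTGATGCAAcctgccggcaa
SESN2: cgggacccgggTTGCATCAactggcagccg
DDIT3: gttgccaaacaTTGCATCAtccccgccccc

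The TRIB3 sequence occurs 3 times without a base of difference, starting 132, 165 and 198 bases after the start, so that successive matches lie 33 bases apart. No other of the 9 genes had the same 30 bases more than once in the window. DDIT3 also had 3 matches, the others of them 819 and 875 bases into the gene in an intron. ASNS, STC2 and SESN2 had 2 each, and CHAC1 and CEBPG had 1. ATF4 and ATF5 had none, which says only that these letters are not in this window. The map of element positions orders the genes by log2 difference. Every gene with a match was lower after fostamatinib, from CHAC1 at the bottom of the range to DDIT3, which was only 1.24-fold lower. Of the genes without a match, ATF4 was lower and ATF5 was higher. Whether matches go with the differences was not tested.

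**Figure D1:**
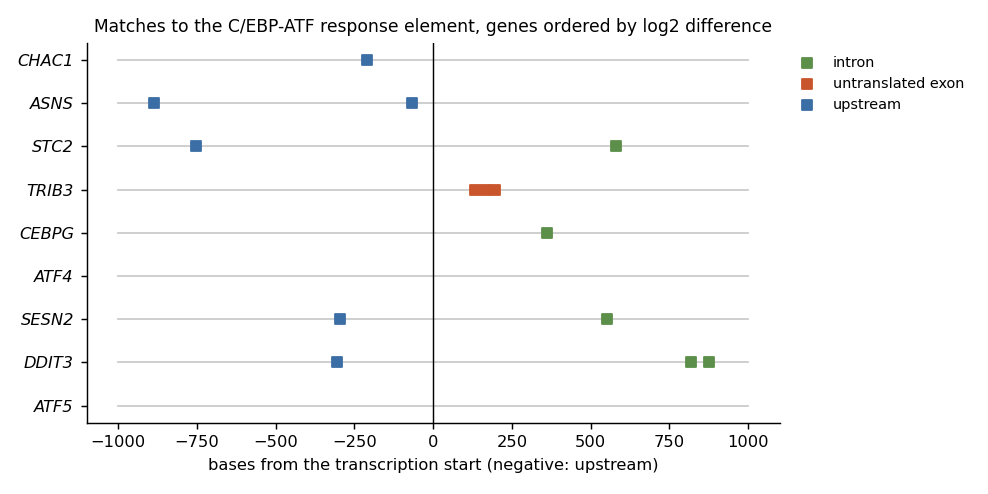
Positions of matches to TGATGNAA on either strand within 1000 bases of the annotated start (GRCh37) of 9 members, in bases on the horizontal axis with upstream negative. Genes are ordered from the most lowered after fostamatinib (top) to ATF5, which was higher; squares mark matches by place, 14 in all, with none in ATF4 or ATF5.

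Over 12604 protein-coding genes searched in the same way, 16.63% had 1 or more matches and 2.039% had 2 or more, against 7 of 9 and 5 of 9 members. The stricter letters TGATGCAA were within the window of 3.364% of these genes and of 6 of the 9 members. In the shorter RefSeq promoter window of GRCh38.p14, from 250 bases before to 50 bases after each start, CHAC1, ASNS and CEBPG held a match, 3 of 9 members beside 4.46% of 27305 genes. The CEBPG match there is the site printed above, seen from a second annotated start. Genes that were no members fell at limma adjusted p under 0.05 in 34.45% of the 299 with a match in the promoter window and in 28.55% of the 10159 without one, with median log2 differences of -0.09 and -0.0062, a difference that was not tested. A match is a run of letters and was not measured as a bound site in these cells. The members were picked as genes that work with ATF4 or under it, so their shares here are a description and not a test.

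The promoters of CHAC1 and ASNS, the members with the greatest differences, are shown for the 250 bases before the start with the same letters in capitals. CHAC1 is at chr15:40953221-40953470 on the plus strand and ASNS at chr7:97872409-97872658 on the minus strand, both from RefSeq on GRCh38.p14 and written 5′ to 3′ along the gene.
CHAC1: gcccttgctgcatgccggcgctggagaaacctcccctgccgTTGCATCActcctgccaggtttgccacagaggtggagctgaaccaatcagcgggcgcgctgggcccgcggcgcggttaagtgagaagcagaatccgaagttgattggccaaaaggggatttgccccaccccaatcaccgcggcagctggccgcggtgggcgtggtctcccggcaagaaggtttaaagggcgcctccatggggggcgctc
ASNS: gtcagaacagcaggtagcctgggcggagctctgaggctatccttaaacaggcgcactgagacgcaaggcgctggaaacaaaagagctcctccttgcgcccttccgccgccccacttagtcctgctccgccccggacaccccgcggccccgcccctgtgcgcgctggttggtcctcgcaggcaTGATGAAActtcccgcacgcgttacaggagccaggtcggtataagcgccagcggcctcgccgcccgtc

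Other elements were searched in the same promoter windows. The CCAAT box (CCAAT, both strands) was in the promoter windows of 5 of the 9 members, DDIT3, CHAC1, SESN2, STC2 and CEBPG, and of 39.7% of all genes. Its letters are part of the ER stress response element, which was in none of the 9 and in 0.0916% of genes. The cAMP response element (TGACGTCA) was in none of the 9 and in 2.25% of genes, and the E-box (CACGTG) was in the window of ATF4 alone and in 8.77% of genes.

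The libraries were alike in size, with 13303451 to 15272737 reads on the 16305 genes. Within a group, pairs of samples differed by 1.65 to 3.74 times the noise of sampling reads (a chi-square divided by its degrees of freedom), whereas pairs taken across groups gave 39.7 to 44.3. Both comparisons with the highest values within a group involved DMSO sample 3. All 10 hepatocyte and liver cancer markers fixed for the check of cell type were present, AFP, FGB and APOB among them. APOA1 was barely so, with 20, 22 and 23 reads in DMSO samples. All 10 rose after fostamatinib (median log2 difference 0.59), APOA1 the most (3.19). The summed level of the 10 went from 5178 to 5520 CPM in DMSO samples to 7044 to 7469 CPM. Of 13 markers of immune, endothelial and fibroblast cells, 7 were in the files, PTPRC, CD3E, CD68, VWF, CDH5 and DCN were not, and the 7 summed to 313 to 323 CPM in DMSO samples and 327 to 330 CPM after fostamatinib, most of it COL1A2 and LUM. Of the 7, 3 rose, COL1A2 by 0.37, PECAM1 by 0.51 and PDGFRB by 0.95, LUM fell (log2 difference -0.40), and 3 did not pass the limma test, with a median log2 difference of 0.37. The part of either marker group in the results on the stress genes was not tested.

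ATF4 (ENSG00000128272, chr22:39915700-39918688, GRCh37) encodes the factor whose translation rises when eIF2 is phosphorylated. Its log2 CPM was 9.03, 9.02 and 8.95 in DMSO samples 1 to 3 and 8.34, 8.33 and 8.27 after fostamatinib. Every fostamatinib sample lay below every DMSO sample, and each group spanned less than 0.1. The difference was -0.69 (SE 0.04), so that ATF4 mRNA after fostamatinib was at 62.2% of its DMSO level, 7499 mean reads going to 4385. Because the values are shares of each library, fewer cells with a given mRNA and less of it per cell cannot be told apart, here or for any gene below.

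CEBPG (ENSG00000153879, chr19:33864591-33873592) encodes a C/EBP family protein known to pair with ATF4 on response elements. In log2 CPM it was at 6.70, 6.71 and 6.73 in DMSO samples and 5.96, 5.96 and 5.99 after fostamatinib. Its spread was the smallest of the 10 in DMSO samples (SD 0.013, n = 3) and, after that of STC2, in fostamatinib samples (SD 0.016, n = 3), and the groups stood 0.72 apart at their nearest. The difference was -0.75 (SE 0.05), close in size to that of ATF4.

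DDIT3 (ENSG00000175197, chr12:57910371-57915520), also known as CHOP, encodes the C/EBP relative that links lasting stress to cell death. Its log2 CPM was 5.41, 5.38 and 5.26 in DMSO samples and 5.01, 5.09 and 5.02 after fostamatinib. The groups did not overlap, but the lowest DMSO value and the highest fostamatinib value were only 0.17 apart, the least of all 10 genes. The difference was -0.31 (SE 0.07), at 80.5% of the DMSO level. DDIT3 shares 355 exon bases with MARS1 and 58 with MBD6 on the opposite strand. The library kit keeps strand, the strand setting of the counting is not given in the sources used here, and reads of these neighbours may therefore be mixed. MARS1 fell by 1.03 on the log2 scale (limma adjusted p = 1.10e-20) and MBD6 rose by 0.38 (limma adjusted p = 2.62e-07). DDIT3 also shares 105 exon bases with the protein-coding gene ENSG00000285133 on the same strand. Strand cannot part reads of that overlap, and its effect on the counts was not tested.

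ATF5 (ENSG00000169136, chr19:50431959-50437192), a relative of ATF4 that is likewise under translational control, was one of the 2 members that were higher. The log2 CPM of ATF5 was 5.61, 5.64 and 5.73 in DMSO samples and 5.92, 5.91 and 5.99 after fostamatinib. All fostamatinib samples were above all DMSO samples, by 0.19 at the nearest. The difference was 0.28 (SE 0.06), or 1.22-fold higher. ATF5 shares 565 exon bases with NUP62 on the opposite strand, and NUP62 moved the other way, with a fall of 0.29 (log2 difference -0.29, limma adjusted p = 1.62e-06).

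TRIB3 (ENSG00000101255, chr20:343479-378203) encodes a pseudokinase that is known to hold back ATF4 and AKT signalling. Its log2 CPM was 7.46, 7.50 and 7.34 in DMSO samples and 6.10, 6.08 and 6.11 after fostamatinib. The groups were 1.23 apart at their nearest, and the mean after fostamatinib was 39.7% of that in DMSO samples. TRIB3 is the gene that holds the 3 identical element copies printed above.

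CHAC1 (ENSG00000128965, chr15:41245160-41248710) encodes an enzyme that breaks down glutathione and is known as a marker of ATF4 activity. It had 424, 468 and 382 reads in DMSO samples and 22, 19 and 19 after fostamatinib, which is 4.95, 4.94 and 4.69 against 0.71, 0.45 and 0.56 on the log2 CPM scale. No other member differed as much: its level after fostamatinib was 5.13% of that in DMSO samples, or 19.5-fold lower. The value of DMSO sample 3 was below the other DMSO samples by 0.26, a small part of the distance of 3.98 between the groups.

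SESN2 (ENSG00000130766, chr1:28586029-28609002) encodes sestrin 2, a stress-induced inhibitor of mTORC1 that senses leucine. The log2 CPM of SESN2 was 5.98, 6.03 and 5.85 in DMSO samples and 5.34, 5.37 and 5.21 after fostamatinib. The groups did not overlap, and the difference of -0.64 (SE 0.06) was near that of ATF4. NUPR1 (ENSG00000176046, chr16:28544029-28550329), a small chromatin-associated stress protein, was the other member that was higher. It had 23, 14 and 17 reads in DMSO samples and 35, 44 and 37 after fostamatinib, or 0.77, -0.07 and 0.24 against 1.37, 1.64 and 1.50 log2 CPM. The groups did not overlap, but with so few reads the difference of 1.19 carried the largest error of the 10 (SE 0.26), and it ranged from 1.001 to 1.42 when single samples were left out. NUPR1 also shares 909 exon bases with the long non-coding RNA gene ENSG00000289754 on the same strand, an overlap whose effect was not tested.

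ASNS (ENSG00000070669, chr7:97480989-97501854) encodes asparagine synthetase, the textbook target of the amino acid response. Its log2 CPM was 7.21, 7.23 and 7.13 in DMSO samples and 4.02, 4.27 and 4.04 after fostamatinib. Fostamatinib sample 2 was the highest of its group by 0.23, and the groups were still 2.86 apart. Mean reads went from 2138 to 239, and ASNS was at 11.8% of its DMSO level, 8.44-fold lower. Its processed copy ASNSP1, whose reads a counter could confuse with those of ASNS, had 57, 83 and 69 reads in DMSO samples and 5, 4 and 4 after fostamatinib. In the annotation used here for positions, ASNS shares 2415 exon bases with the long non-coding RNA gene ENSG00000284707 on the same strand. Strand cannot part reads of that overlap, and its effect on the counts was not tested.

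STC2 (ENSG00000113739, chr5:172741726-172755450) encodes stanniocalcin 2, a secreted glycoprotein. STC2 had a log2 CPM of 7.92, 7.94 and 7.82 in DMSO samples and 5.82 in each of the 3 fostamatinib samples. The mean difference was -2.08 (SE 0.05), or 4.21-fold lower, with 2.00 between the groups at their nearest.

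**Figure D2:**
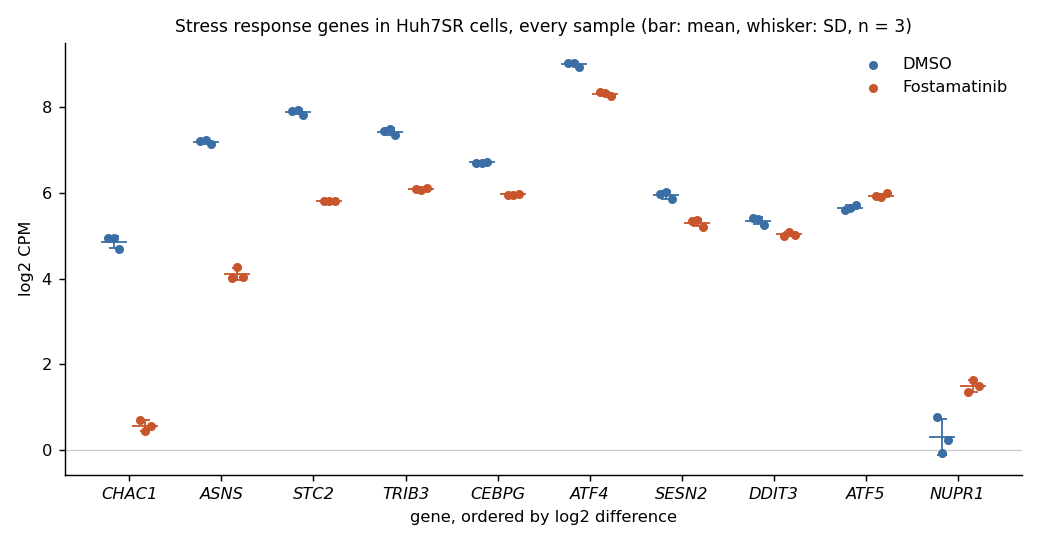
Log2 CPM of the 10 genes in each of the 3 DMSO and 3 fostamatinib samples (points), with the group mean (bar) and SD (whisker), genes ordered from the most lowered to the most raised. The groups are separate for all 10 genes; CHAC1 goes from a mean of 4.86 to 0.57, and ATF5 and NUPR1 at the right are the ones with fostamatinib above DMSO.

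In all 10 members the 3 fostamatinib samples did not overlap the 3 DMSO samples, as was so for 54.1% of all genes (27.4% lower and 26.8% higher). Over all genes limma called 47.8% changed at an adjusted p under 0.05, 24.5% lower and 23.3% higher after fostamatinib. Since the members were picked on this contrast, their count is not read against these shares. Reads on the 10 genes together made up 0.136% of all reads in DMSO samples and 0.0659% after fostamatinib. With each of the 6 samples left out in turn, 8 members were lower each time. ATF4 then lay between -0.71 and -0.66, CHAC1 between -4.37 and -4.22, and ASNS between -3.16 and -3.03.

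The DMSO samples were not evenly placed for these genes. DMSO sample 3 was the lowest of its group for 7 of the 10 members, namely ATF4, DDIT3, TRIB3, CHAC1, SESN2, ASNS and STC2, while it was the lowest for 36.8% of the 11485 genes that averaged 50 or more reads. It lay below the mean of the other DMSO samples by a median of 0.11 (log2 difference -0.11) over the members, beside 0.0031 above it over those genes. For ATF5 and CEBPG it was the highest instead. In CHAC1 the shift was -0.26, and in SESN2 it was -0.15. These shifts are small beside the differences of the lower genes, DDIT3 excepted, where -0.14 stands against -0.31.

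**Figure D3:**
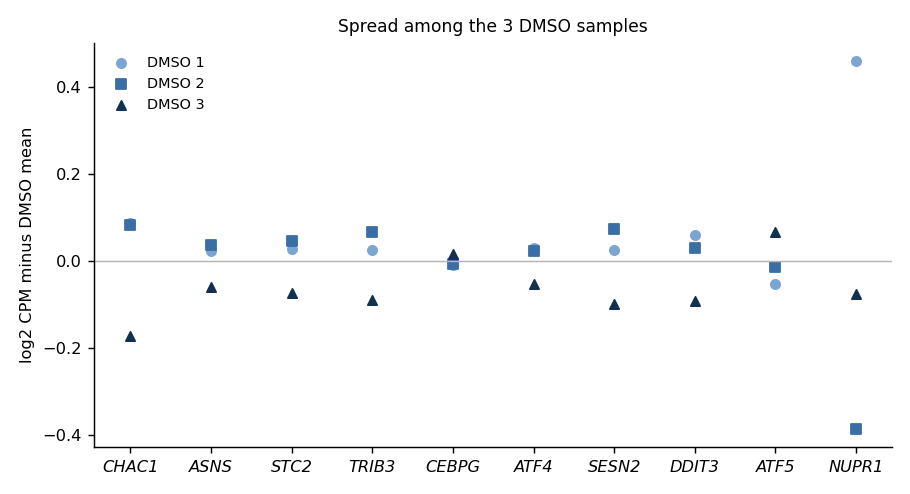
Log2 CPM of each DMSO sample minus the mean of the 3 DMSO samples, for the 10 genes in the order of the plot of all samples. DMSO 3 (triangles) lies lowest in 7 genes, by the most in CHAC1, and highest in ATF5 and CEBPG; NUPR1 has the widest spread, on 14 to 23 reads.

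Levels were compared between genes only per length, as RPKM, the CPM divided by the length of the canonical transcript in kilobases. In DMSO samples ATF4 was highest at 361 ± 11.4 RPKM (SD, n = 3), followed by TRIB3 at 73.3 ± 4.07, ASNS at 61.3 ± 2.21, STC2 at 56.0 ± 2.45 and DDIT3 at 45.3 ± 2.48. Next came CEBPG at 28.1 ± 0.26, ATF5 at 25.2 ± 1.07, CHAC1 at 19.1 ± 1.90, SESN2 at 17.9 ± 1.09 and NUPR1 at 0.241 ± 0.073 RPKM. CHAC1 and SESN2 were the only neighbours in that order whose samples overlapped. The second gene, TRIB3, was thus far below ATF4, and NUPR1 stood apart at the other end.

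After fostamatinib the order was ATF4 at 225 ± 5.85 RPKM (SD, n = 3), DDIT3 at 36.4 ± 1.14, ATF5 at 30.6 ± 0.90, TRIB3 at 29.1 ± 0.35, CEBPG at 16.8 ± 0.19, STC2 at 13.3 ± 0.0092, SESN2 at 11.5 ± 0.67, ASNS at 7.28 ± 0.72, CHAC1 at 0.981 ± 0.089 and NUPR1 at 0.538 ± 0.051. No neighbours overlapped. DDIT3 went from place 5 to 2 and ATF5 from 7 to 3, while ASNS went from 3 to 8 and STC2 from 4 to 6. The place of NUPR1 rests on its length: the canonical transcript has 5291 bases and its other coding transcript 550, with which NUPR1 would be at 2.32 ± 0.70 RPKM in DMSO samples and at 5.17 ± 0.49 after fostamatinib, above CHAC1. With the union of all annotated exons as the length of every gene, an alternative chosen after seeing the data, ASNS was in place 5 and not 3 in DMSO samples, SESN2 came before ATF5 and CHAC1, and SESN2 came before STC2 after fostamatinib.

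**Figure D4:**
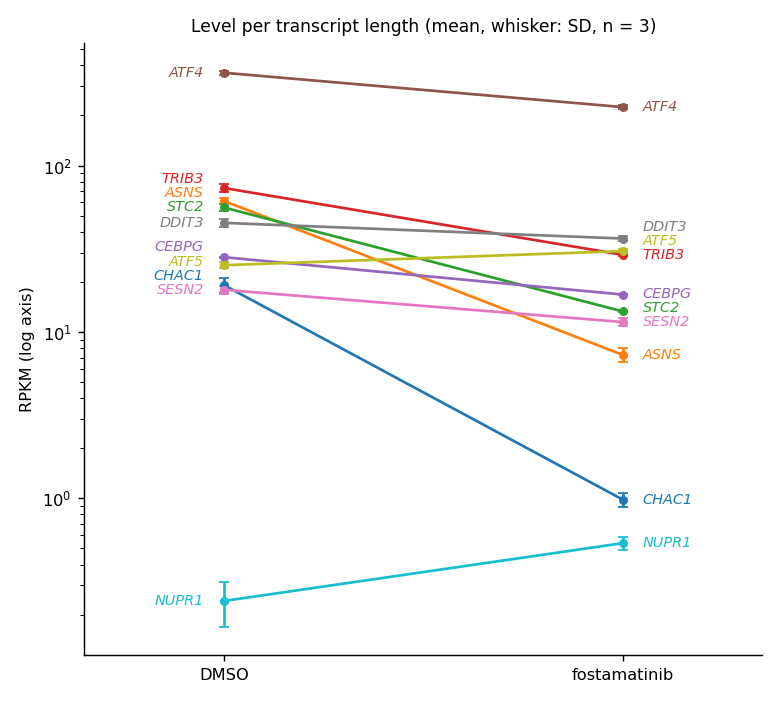
Mean RPKM of the 10 genes on a log axis in DMSO (left) and fostamatinib samples (right), whiskers showing SD (n = 3 a group) and lines joining the means of a gene. ATF4 stays highest, from 361 to 225 RPKM, while ASNS goes from place 3 to 8, CHAC1 from 8 to 9, and ATF5 and NUPR1 slope up.

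Set against ATF4 in the same sample, the members parted in both directions. CHAC1 minus ATF4 in log2 CPM was -4.14 (SD 0.10, n = 3) in DMSO samples and -7.74 (SD 0.12, n = 3) after fostamatinib, and ASNS went from -1.81 to -4.20. SESN2 and CEBPG kept nearly the same distance, from -3.05 to -3.01 and from -2.29 to -2.35. DDIT3 came nearer to ATF4, from -3.65 to -3.28, as did ATF5, from -3.34 to -2.38. The members that were lower thus included genes with a smaller, a similar and a larger difference than ATF4 mRNA.

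The genes whose pattern over the 6 samples was most like that of ATF4, by the root mean square difference of log2 CPM after each gene's mean was taken off, were CASP4 (0.0242), CCNB1IP1 (0.0251), XPO5 (0.0252), MELK (0.0260) and AMPD3 (0.0268). The median over the 11167 genes compared was 0.35, and none of these 5 is a member or on the pathway lists. Their log2 differences ran from -0.66 in CCNB1IP1 to -0.72 in CASP4. ATF4 had an SD of 0.046 within DMSO samples and 0.038 within fostamatinib samples, beside its difference of -0.69. The measure therefore mostly finds genes with a difference near that of ATF4, in the contrast used to choose the members.

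The other genes of the pathway were taken from 7 lists and tested with limma over all genes. The lists, like the members, were chosen with earlier results of these data known. Their counts, medians and p-values are therefore a description and not independent support. Upstream, of 18 genes for the eIF2 kinases, eIF2, its exchange factor eIF2B and its phosphatase, 2 rose, 9 fell and 7 did not pass the test (median log2 difference -0.14). The haem-regulated kinase EIF2AK1 rose by 0.42 (adjusted p = 1.54e-11), whereas EIF2AK4, the sensor of uncharged tRNA, had a difference of 0.06 and did not pass (adjusted p = 0.282). The eIF2 subunits EIF2S2 (-0.71, adjusted p = 6.02e-18) and EIF2S1 (-0.63, adjusted p = 5.93e-14) and the exchange factor subunit EIF2B3 (-0.58, adjusted p = 2.73e-08) fell. PPP1R15A, the stress-induced phosphatase subunit that closes the loop back to eIF2, fell by 0.41 on the log2 scale (difference -0.41, adjusted p = 6.43e-10) and is named here after its values were seen.

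Among ATF, CREB and C/EBP relatives, 6 of 20 measured genes rose, 9 fell and 5 did not pass (median -0.08), and CEBPE was not in the files. CEBPA, a factor of the mature hepatocyte, rose by 1.58 (adjusted p = 7.19e-18). CEBPD, known from the acute phase response, had a log2 difference of -1.74 (adjusted p = 1.54e-22), CREB5 one of -1.67 (adjusted p = 5.65e-17) and JDP2, a repressor that pairs with Jun proteins, one of -1.62 (adjusted p = 4.10e-18). ATF2 did not pass (0.03, adjusted p = 0.574). Named after their values were seen, ATF3, a stress-induced factor downstream of ATF4 (-1.28, adjusted p = 1.37e-16), and the C/EBP family gene CEBPB (-0.83, adjusted p = 1.59e-15) fell, and CREB3L3, a liver factor of the endoplasmic reticulum, rose (1.58, adjusted p = 1.40e-24).

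The near relatives of the members did not all move with them. STC1, the relative of STC2, fell (log2 difference -1.74, adjusted p = 1.40e-18), as did CHAC2, the relative of CHAC1, by less than CHAC1 (-0.84, adjusted p = 6.68e-04), and TRIB1 (-0.58, adjusted p = 1.72e-11). The sestrins went the other way from SESN2: SESN3 rose by 0.80 (adjusted p = 1.44e-12) and SESN1 by 0.26 (adjusted p = 0.0316). The call on SESN1 was lost without DMSO sample 2 (adjusted p = 0.0584), DMSO sample 3 (0.142), fostamatinib sample 1 (0.114) or fostamatinib sample 2 (0.0625). ASNSD1, which carries an asparagine synthetase domain, did not pass (-0.02, adjusted p = 0.814), and TRIB2 and NUPR2 were not in the files. The differences between relatives were not tested.

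The targets in amino acid synthesis and transport were the list with the lowest median. Of 20 genes 19 fell, 12 of them by more than 2-fold, and 1 rose, the median log2 difference being -1.19. PSAT1 of serine synthesis fell the most (-2.69, adjusted p = 2.10e-32), from 4587, 5028 and 5059 reads in DMSO samples to 731, 745 and 668. The glycine transporter SLC6A9 (-2.62, adjusted p = 3.10e-18) and the mitochondrial folate enzymes MTHFD2 (-2.25, adjusted p = 3.97e-28) and ALDH1L2 (-2.23, adjusted p = 6.40e-20) followed. The gene that rose, ALDH18A1 of proline synthesis, is named after its value was seen and did so by 0.14 (adjusted p = 0.00491), a call that was lost without a mean-variance trend in the fit (adjusted p = 0.0515).

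All 13 genes of the list of cytosolic aminoacyl-tRNA synthetases and the tRNA exporter XPOT fell (median -0.89), within the narrow range of -1.13 to -0.50. XPOT was lowest (-1.13, adjusted p = 3.53e-23), with YARS1 (-1.07, adjusted p = 1.21e-20), MARS1 and CARS1 (-0.98, adjusted p = 1.63e-17) next. ASNS, a member, was thus further below its DMSO level than every gene of both of these lists, and ATF4 was less far below than the median of each.

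Of 22 other stress targets 3 rose, 14 fell and 5 did not pass (median -0.39), and FGF21 was not in the files. GADD45A, a growth arrest gene, fell the most (-2.02, adjusted p = 5.72e-24), followed by ADM2, a peptide hormone gene (-1.76, adjusted p = 2.84e-19), the translation repressor EIF4EBP1 (-1.35, adjusted p = 6.06e-20) and the lipoprotein receptor VLDLR (-1.13, adjusted p = 1.80e-17). The autophagy gene MAP1LC3B did not pass (0.06, adjusted p = 0.249).

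The last list holds genes of the ATF6 and XBP1 arms of the unfolded protein response, which answer to stress of the endoplasmic reticulum. Of 18, 2 rose, 13 fell and 3 did not pass, with a median of -0.16 and none at 2-fold. The 15 calls became 10 without a mean-variance trend in the fit. EDEM1 (-0.58, adjusted p = 3.18e-11), DNAJB9 (-0.50, adjusted p = 1.12e-07), MANF (-0.47, adjusted p = 2.13e-07) and ERN1, the sensor kinase IRE1 (-0.40, adjusted p = 1.22e-07), fell. The chaperone HSP90B1 did not pass (-0.01, adjusted p = 0.801), and HSPA5, also known as BiP and named after its value was seen, fell by 0.14 (difference -0.14, adjusted p = 5.36e-04). The difference between the lists was not tested.

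**Figure D5:**
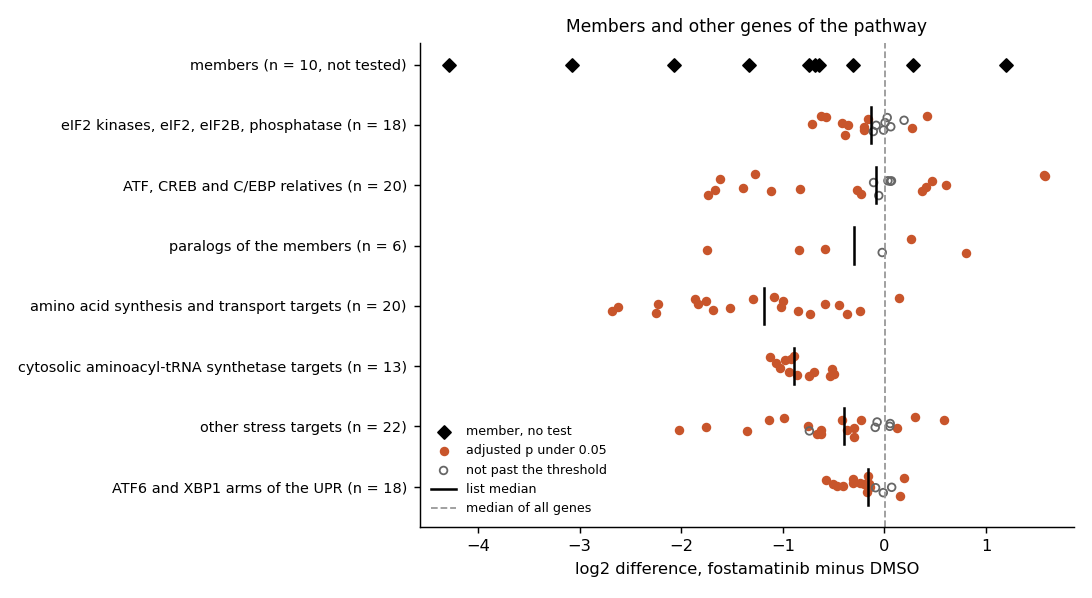
Log2 difference, fostamatinib minus DMSO, of the 10 members (diamonds, no test) and of the genes of 7 pathway lists (filled, limma adjusted p under 0.05; open, not past it), with the median of each list (black bar) and of all genes (dashed line). The amino acid and tRNA synthetase lists lie left of the dashed line but for ALDH18A1, with medians of -1.19 and -0.89, while the ATF6 and XBP1 list stays between -0.58 and 0.19.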

How the data were processed

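Poly(A) RNA of 6 Huh7SR samples was sequenced from a strand-keeping kit. Per the submitters' processing notes, reads were aligned with HISAT to hg19 and counted with featureCounts, with versions and strand setting not given in the sources used here. The authors deposited log2 values (log2 CPM, TMM-scaled with 0.5 reads added) of genes with at least 5 reads in 2 samples of a group. Whole reads recovered from these values were within 0.05 of a whole number in 100% of cases. One gene listed 7 times was used once.

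The log2 values were fitted with limma 3.58.1 (R 4.3.3; mean-variance trend, moderated test, Benjamini-Hochberg adjustment over 16305 genes), which was tested on simulated data. Alternatives were voom, no trend, other scalings, a filter of 10 reads, 2 added reads, a replicate block and each sample left out. The members and lists were chosen with earlier results of these data known. Named from each list were up to 4 called genes with the largest absolute log2 difference and 50 or more mean reads in the higher group, and the gene not called with the highest mean, together with all relatives of the members and the 5 genes most like ATF4. Positions and lengths are from GENCODE v44 lifted to GRCh37, which held 98.72% of the identifiers. Motifs were matched with Python 3.11.15.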

Additional observations from a re-analysis of the deposited data

How the results depend on the processing

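No member, and no named gene that passed the test, changed direction under any alternative run. ASNSD1, which did not pass, went from a log2 difference of -0.02 to 0.015 without DMSO sample 1. Without DMSO sample 2 it was at 0.0016. The count of genes called (7794) was 6382 without a mean-variance trend, which also took the ATF6 and XBP1 list from 15 calls to 10 and the hepatocyte markers from 10 to 9, and 6958 to 7480 with single samples left out, and the members' median log2 difference stayed between -0.73 and -0.71. Without the trend SESN1 (adjusted p = 0.0661) and ALDH18A1 (adjusted p = 0.0515) lost their calls. Another scaling moved the median of all genes to 0.0052 (median ratio) or -0.0096 (library size). A fit that took the replicate number as a block called 7977 genes. Correlations between deviations of same-numbered samples were 0.034, -0.044 and 0.041. These values show no shared deviation, but they cannot exclude that same-numbered samples were handled together. No run without a filter on low values was possible, because the deposited values were already filtered. With 3 samples a group an exact permutation test cannot go below p = 0.1, and NUPR1, on 14 to 44 reads, is the member that depth limits most.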
